A study of Drosophila melanogaster with 3 samples.

Results

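The genes described here are 10 genes of epidermal growth factor (EGF) receptor and Ras signalling, out of 13968 protein-coding genes of Drosophila melanogaster, among them the ligand genes spi and vn, the receptor gene Egfr, the cascade genes Ras85D and Raf, the nuclear effector genes pnt and aop, and the inhibitor genes aos and sty. They were chosen by pathway, and every binding summit inside each gene or within 5000 bp of its ends was taken. Binding of Achaete (Ac), a bHLH protein that makes ectodermal cells competent to become neural, was measured by chromatin immunoprecipitation and sequencing in whole embryos of mixed sex, aged 0 to 8 h. The line is a transgenic stock in which Ac has GFP fused to its C-terminal end, and the precipitation used an anti-GFP antibody. There were 3 biological replicates of this 1 group, and no second genotype, treatment or stage. What drives the fusion protein is not given in the sources used here, whole embryos mix all cell types, and no label tells whether each replicate was an embryo collection of its own, so their spread may be technical.

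In flies, the EGF receptor is switched on by secreted ligands, of which Spitz (the product of spi) must first be cut free from the membrane. The active receptor signals through Ras, Raf and the MAP kinase to a pair of ETS-family transcription factors, the activator Pointed (pnt) and the repressor Yan (aop). In the embryo the pathway patterns the ventral ectoderm and takes part in neuroblast and sensory organ formation, in which proneural proteins such as Ac also act, and it induces its own inhibitors, among them the secreted Argos (aos) and the intracellular Sprouty (sty).

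Ac summits were present at 9 of the 10 genes, and Ras85D had none in the authors' optimal list. That list holds the 2756 regions that passed the authors' comparison of ranks between replicates, and 32 of them had their summit at a pathway gene. Raf had 10, aop 6, pnt 5, aos 4, sty 3, and spi, vn and Egfr 1 each. The authors' signal value has no stated scale and is used here only to rank regions within 1 list, rank 1 being the strongest. The strongest summits were at aos (rank 118), aop (rank 231) and Raf (rank 267). The median rank of the 32 summits was 1067, against 1378.5 over the optimal list.

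Over all protein-coding genes, 28.2% had an optimal summit inside them or within 5000 bp. Pathway genes are long, with a median of 23027 bp against 2164.5 bp over all genes, and a longer gene has more room for a summit. All 7 pathway genes of at least 10 kb had an optimal summit, beside 46.0% of the 1985 genes of that length. Of the 3 shorter ones, 2 had a summit, beside 25.3% of the shorter genes. Per length, the pathway genes and their surroundings held 9.13 optimal summits per 100 kb. The value was 2.10 in the surroundings of all genes of at least 10 kb and 2.21 in those of all genes. The pathway genes differed in this density. Per 10 kb, aop held 1.86 summits, aos 1.72, Raf 1.71, sty 0.888, pnt 0.758 and spi 0.515. The genes vn (0.236) and Egfr (0.21) were near the density of all genes of at least 10 kb, and Ras85D had no summit. The count of genes with a summit was 9 of 10 within 2000 bp (19.0% of all genes) and 8 of 10 inside the gene body alone (7.89%). No test was made of these counts, since the genes were named with earlier results of the data known.

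**Figure D1:**
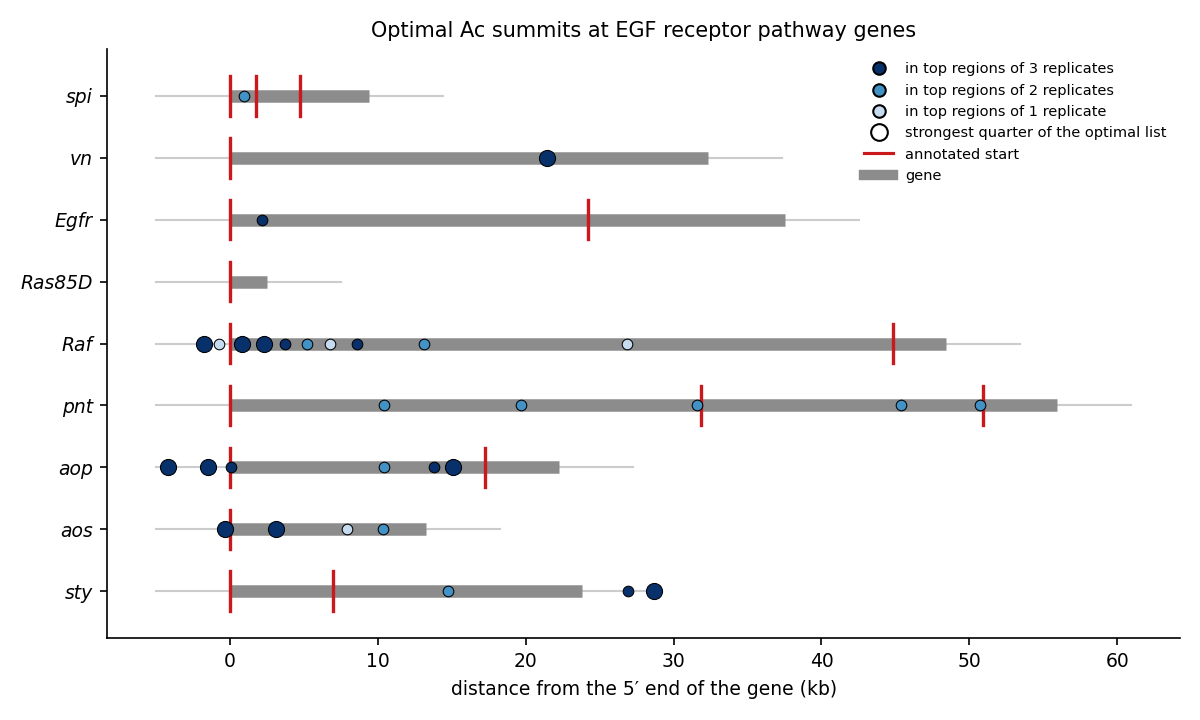
Optimal Ac summits (circles) along each named pathway gene, plotted as distance from the 5′ end of the gene in kb, with the gene in dark grey, the 5000 bp to each side as a thin line and annotated transcription starts in red. Darker circles lie in the top regions of more replicates and large circles are among the strongest 689 optimal summits, and Raf shows 10 summits, 9 of them over its first 14 kb and the sequence just upstream.

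The bound sequence itself is shown first for the summits that hold an E-box, the element that proneural proteins bind with their partner Daughterless. The word sought was GCAGCTG or GCAGGTG on either strand, which contain the cores CAGCTG and CAGGTG. Of the 32 summits, 4 had a match within 100 bp, at spi, aos, Raf and Egfr, and those of spi, aos and Raf are printed here. Each runs 100 bases to either side of the summit, on the plus strand of the dm6 assembly as held by RefSeq, so that the middle base is the summit. Capitals mark the E-box and any match to the ETS core CCGGAA, the Zelda motif CAGGTAG or the GAGA repeat GAGAG on either strand. In the spi window the E-box reads CACCTGC, the reverse complement of GCAGGTG, and a core without the leading G lies just before it in lower case. In the aos window the E-box, also CACCTGC, is followed after 2 bases by a Zelda match. In the Raf window the E-box is GCAGCTG, with a Zelda match further on.
spi intron, rank 1649, chr2L:19576306-19576506: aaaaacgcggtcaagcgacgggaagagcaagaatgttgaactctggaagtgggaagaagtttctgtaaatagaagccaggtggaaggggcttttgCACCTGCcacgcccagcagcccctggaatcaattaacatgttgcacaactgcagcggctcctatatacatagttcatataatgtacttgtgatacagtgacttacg
aos intron, rank 2059, chr3L:16473176-16473376: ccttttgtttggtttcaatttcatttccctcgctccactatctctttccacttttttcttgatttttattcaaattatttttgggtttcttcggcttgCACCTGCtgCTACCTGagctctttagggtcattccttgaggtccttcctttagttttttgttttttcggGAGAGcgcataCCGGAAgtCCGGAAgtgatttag
Raf intron, rank 1098, chrX:2308507-2308707: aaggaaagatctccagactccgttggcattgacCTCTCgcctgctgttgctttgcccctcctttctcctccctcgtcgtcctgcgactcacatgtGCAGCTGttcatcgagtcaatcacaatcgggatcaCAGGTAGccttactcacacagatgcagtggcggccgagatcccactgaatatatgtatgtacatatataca

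These E-boxes were close to the summit. The centre of the match was 2 bp from the summit at spi, 1 bp at aos, 2 bp at Raf and 18 bp at Egfr, where the word was GCAGGTG. At spi, aos and Egfr the deposited summit is the midpoint of a region of 390 bp, so these distances are to a midpoint. The summit was the midpoint of its region, of whatever width, at 17 of the 32 pathway summits (53.1%, against 55.8% over the list). The median distance of the 4 was 2 bp, against 29 bp over the 493 optimal summits of the whole list with an E-box in the window. Of these 493, 183 (37.1%) had it within 20 bp. That limit lies just above the largest of the 4 distances, so that all 4 fall within it is no separate result. The 4 summits ranked between 1098 and 2059. A match is a description of the letters and not a shown site.

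The strongest summits of aos, aop and Raf had no E-box in the same window, and neither had those of vn, sty and pnt. Over the whole optimal list 17.9% of summits had one. The windows of aos, aop and Raf are printed because they rank highest, taking 1 per gene, with the same capitals. The aos window holds 1 GAGAG, the Raf window 2 and the aop window no capital at all.
aos intron, rank 118, chr3L:16480464-16480664: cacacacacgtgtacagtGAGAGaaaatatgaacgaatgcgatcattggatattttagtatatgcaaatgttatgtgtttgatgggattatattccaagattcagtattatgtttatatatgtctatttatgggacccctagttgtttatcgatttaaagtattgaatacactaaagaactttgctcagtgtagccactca
aop upstream, rank 231, chr2L:2182832-2183032: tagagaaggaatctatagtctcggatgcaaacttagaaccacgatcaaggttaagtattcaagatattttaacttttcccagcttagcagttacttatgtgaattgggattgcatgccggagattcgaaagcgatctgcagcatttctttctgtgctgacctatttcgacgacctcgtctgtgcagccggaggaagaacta
Raf intron, rank 267, chrX:2297650-2297850: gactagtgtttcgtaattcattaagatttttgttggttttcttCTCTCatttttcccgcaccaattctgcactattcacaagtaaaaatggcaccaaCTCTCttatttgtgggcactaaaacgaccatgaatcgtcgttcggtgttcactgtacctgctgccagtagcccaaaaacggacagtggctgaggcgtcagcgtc

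The share of summits with an E-box was 12.5% at the pathway genes (4 of 32), against 17.9% over the optimal list. In windows of the same width 1000 bp to each side it was 9.38% at the pathway genes and 7.38% over the list. The fixed motif that was most frequent at the pathway genes was the GAGA repeat, the word read by the GAGA factor, a chromatin protein of open promoters and enhancers. It occurred at 16 of 32 summits against 28.9% over the list, and in 37.5% of the pathway flanks against 22.9% of all flanks. Raf accounted for 6 of these summits and pnt and aos for 3 each, and the Raf summit of rank 2122 held 9 overlapping matches in a single run. The word bound by Zelda, an activator of the early embryonic genome, was found at 3 summits (9.38% against 2.58%), at aos, aop and Raf. The ETS core was taken as the single word CCGGAA, and other words that Pointed and Yan may read were not sought. This word was found only at the aos summit of rank 2059, in a pair of matches (3.12% against 5.7%). The Su(H) motif of Notch signalling (C or T, then GTG, then G or A, then GAA) was found at 1 summit of pnt and 1 of Raf (6.25% against 2.21%), and in 7.81% of the pathway flanks against 2.09% of all flanks, so it was no more frequent at these summits than beside them. For Zelda the flank shares were 3.12% and 1.51%, and for the ETS core 4.69% and 5.57%. The windows at pathway genes were slightly richer in G and C, with a median of 41.3% against 38.8%, and the part of base composition in these shares was not tested.

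**Figure D2:**
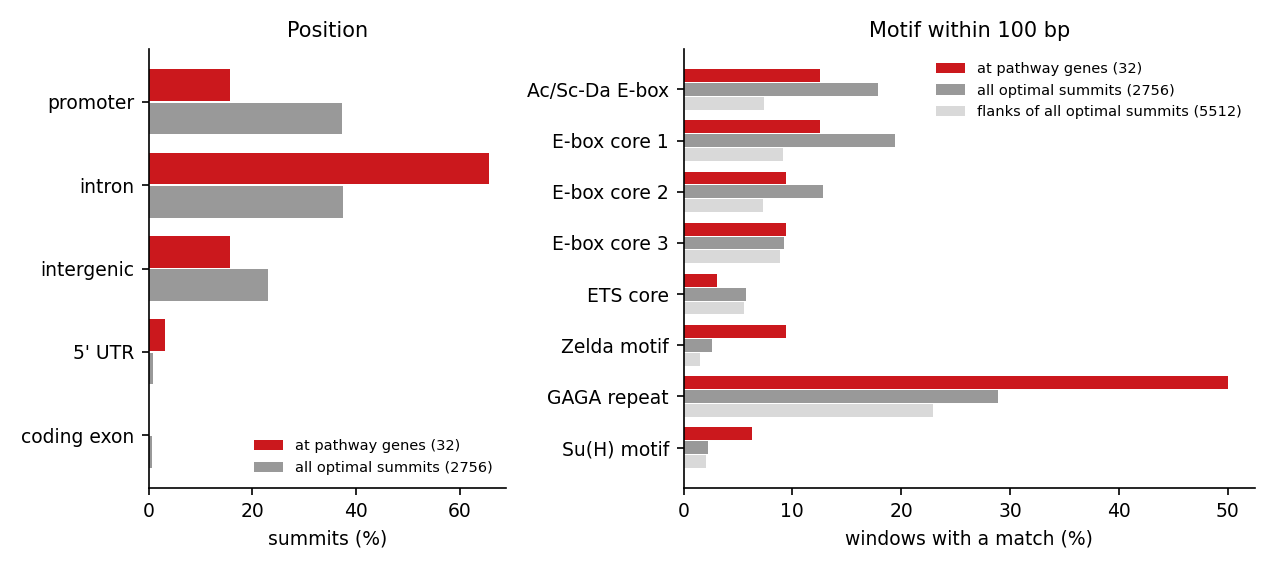
Left, percentage of optimal summits in each annotation class for the 32 summits at pathway genes (red) and all 2756 (grey), and right, percentage of windows of 100 bp to each side with a motif match, with the flanks of all optimal summits in light grey, where E-box core 1 is CAGCTG, core 2 is CAGGTG and core 3 is CACATG. Introns hold 65.6% of the pathway summits against 37.4%, promoters 15.6% against 37.2%, and the GAGA repeat is in 16 of the 32 windows against 28.9%.

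Most summits at these genes lay in introns. Introns held 21 of 32 (65.6%, against 37.4% of the optimal list), the promoter class, within 500 bp of a protein-coding start, held 5 (15.6% against 37.2%), intergenic sequence 5 and a 5′ UTR 1. Long genes hold more intron than short ones, and the part of gene length in this difference was not tested. Of the 5 promoter summits, 4 were at starts of the pathway genes themselves: 372 bp from the aos start, 74 bp from the outer aop start, and 239 bp and 203 bp from the inner starts of pnt. The fifth lay upstream of Raf, 300 bp from the start of the neighbouring gene CG2865. When a replicate was left out by keeping only optimal summits found in the top regions of both others, 3 promoter summits remained on leaving out replicate 1, 3 on leaving out replicate 2 and 5 on leaving out replicate 3. Of the E-box summits 3, 1 and 2 remained, in the same order.

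Each replicate's top regions are its 2756 highest-ranked, as many as the optimal list holds, and an optimal summit counted as present when a top summit lay within 150 bp. Of the 32 pathway summits, 16 were present in all 3 replicates, 11 (34.4%) in 2 and 5 (15.6%) in 1. Over the optimal list the shares were 47.5%, 32.4% and 18.6%. Leaving out a replicate as above left 21 pathway summits without replicate 1, 17 without replicate 2 and 21 without replicate 3. The top regions of the replicates taken alone put a summit at 8, 8 and 9 of the 10 genes, where 28.8%, 27.5% and 27.3% of all genes had one. Each replicate also had top regions at these genes with no optimal summit within 150 bp. These were 6 of 30 in replicate 1, 7 of 34 in replicate 2 and 14 of 38 in replicate 3. The same share over all top regions is not given here, nor that of the whole list on leaving out a replicate. Neither set of counts is therefore read as a trait of these genes.

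**Figure D3:**
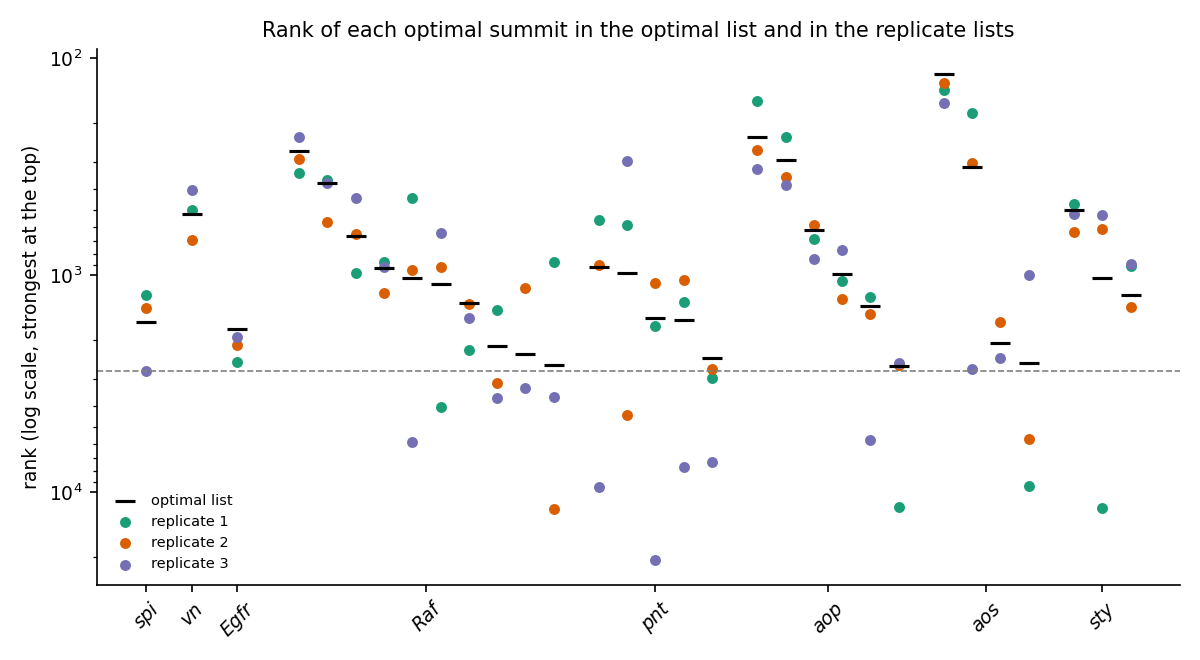
Rank of 31 optimal summits at the named pathway genes in the optimal list (black bar) and of the nearest summit within 150 bp in each full replicate list (coloured points), on a log axis with the strongest at the top and a dashed line at rank 2756. The 3 replicates lie close together at the strongest summits of aos, Raf, vn and sty and far apart at those of pnt, and 2 summits have no counterpart in replicate 1.

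The ligand genes had 1 optimal summit each. The gene spi (FBgn0005672, chr2L:19567900-19577315, minus strand), which encodes the main TGF-alpha-like ligand, had its optimal summit in an intron, 909 bp downstream of its outermost start and 819 bp upstream of an inner one. The ranks were 1242, 1423 and 2765 in replicates 1, 2 and 3 (1810 ± 832), and the summit remained only on leaving out replicate 3. Replicate 1 was alone in having a top region, of rank 710, 153 bp from that inner start, and in the pooled list, which was called on all 3 replicates together, the same region ranked 5788. The neuregulin-like ligand gene vn (FBgn0003984, chr3L:5813338-5845664, minus strand) had a stronger summit, of rank 524, in an intron 21440 bp from its start. It ranked 501, 691 and 407 in the 3 replicates (533 ± 145), so all of them held it high. The nearest protein-coding start to this summit was that of mad2, 11131 bp away. At the vn start itself the nearest pooled summit, 120 bp away, ranked 3909, below the optimal list. Replicate 2 alone had a top region there, of rank 2598, 123 bp from the start.

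Argos, a secreted protein that binds Spitz and keeps it from the receptor, had the strongest summit of all 10 genes. The gene aos (FBgn0004569, chr3L:16470386-16483650, minus strand) lies within the longer gene CG33158, so its summits also fall in that gene. The summit of rank 118, in an intron 3086 bp from the aos start, ranked 141, 131 and 161 in the replicates (144.3 ± 15.3). The promoter summit, of rank 317, ranked 179 and 305 in replicates 1 and 2 and 2716 in replicate 3, which put it only just among the top regions there. Replicate 3 also had a stronger region at this promoter, of rank 1055, 236 bp from that summit and 136 bp from the aos start. The E-box summit of rank 2059, 10374 bp from the start, was absent from the list of replicate 1 and ranked 1643 and 2412 in the others. The fourth, of rank 2533, ranked 1005 in replicate 3 against 9396 and 5681 in replicates 1 and 2, and replicate 2 had a top region of rank 2095 just outside the limit, 177 bp from it. Of the 4 aos summits 3 remained on leaving out replicate 1, 2 on leaving out replicate 2 and 2 on leaving out replicate 3.

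The receptor gene Egfr (FBgn0003731, chr2R:21522420-21559977, plus strand) had a single optimal summit, of rank 1773, in an intron 2147 bp downstream of its first start. Its ranks of 2520, 2108 and 1937 (2188 ± 300) were close to each other, and all 3 replicates had it among their top regions, though low. The next region, ranked 2893 in the pooled list and so just outside the optimal list, was 119 bp from the inner Egfr start. It ranked 700 in replicate 3 and 5797 in replicate 2, with no counterpart in replicate 1.

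The genes Ras85D and Raf, neighbours in the cascade, stood at opposite ends of the range. Ras85D (FBgn0003205, chr3R:9510561-9513067, minus strand), which encodes the Ras GTPase, is 2.51 kb long and its nearest optimal summit was 20213 bp from its start. Its strongest pooled region, 107 bp from the start, ranked 4327 with a q value of 0.00474, and was at ranks 7460, 14634 and 4418 in the replicates. No replicate had a top region there.

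Raf (FBgn0003079, chrX:2295466-2343870, plus strand), the kinase that acts below Ras, had 10 optimal summits, and 6 protein-coding genes in all, Raf included, had 10 or more. All 6 are long, from Raf at 48405 bp to CG32816 at 154151 bp. Of the 10 Raf summits, 6 remained on leaving out replicate 1, 5 on leaving out replicate 2 and 6 on leaving out replicate 3. Leaving out a replicate in this way can only lose summits. The summits at Raf spanned 28.6 kb with a median gap of 1547 bp, and replicates 1, 2 and 3 had 8, 9 and 10 top regions at the gene (9.0 ± 1.0). The strongest, of rank 267, lay in an intron 2284 bp from the first start and ranked 339, 293 and 232 (288 ± 53.7). Rank 377 belonged to a summit in the 5′ UTR, 806 bp from the start, with ranks of 364, 570 and 375. Upstream, beside CG2865, the summit of rank 658 ranked 983, 649 and 440. These 3 and the intronic summits of rank 925 and 1349 were among the top regions of all 3 replicates.

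The other 5 Raf summits differed between replicates. The summit of rank 1036 ranked 441 and 944 in replicates 1 and 2 and 5875 in replicate 3, and the E-box summit of rank 1098 did the reverse, at 4039, 914 and 642. The summits of rank 2122 and 2608 were among the top regions of replicate 1 alone, at 1451 and 872. The summit of rank 2323, 71 bp from the start of the non-coding gene lncRNA:CR34052 inside Raf, was absent from the list of replicate 1 and ranked 1145 and 3315 in the others. The inner Raf start, near the 3′ end, had no optimal summit nearer than 17963 bp, and the nearest pooled region, 111 bp away, ranked 5206. Replicate 3 alone had a top region there, of rank 2345, 239 bp from that start.

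**Figure D4:**
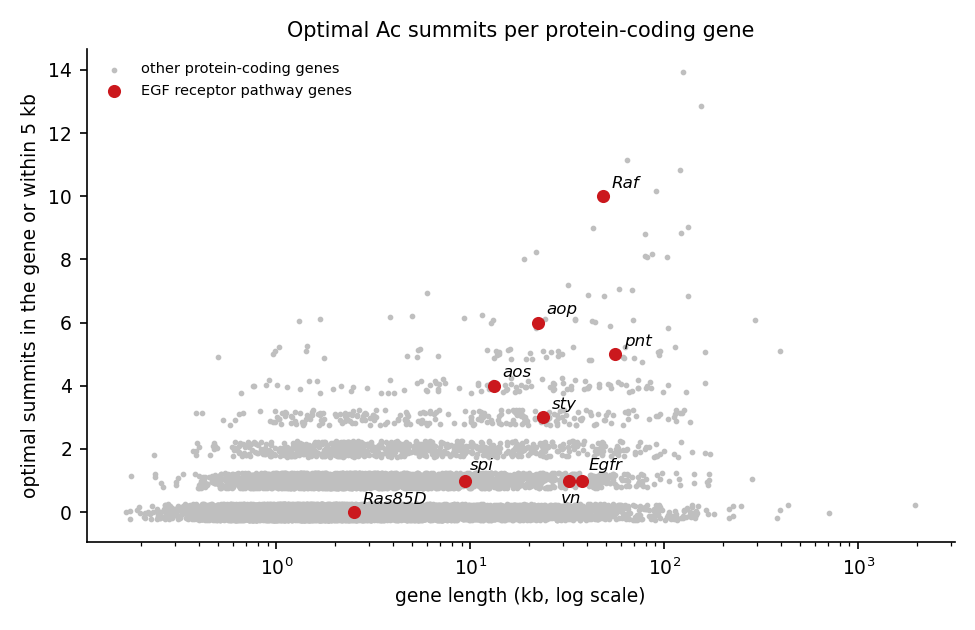
Number of optimal Ac summits inside each protein-coding gene or within 5 kb (vertical axis, grey points spread slightly to separate them) against gene length in kb on a log axis. Raf with 10 and aop with 6 lie near the upper edge for genes of their length, while vn and Egfr, between sty and Raf in length, have 1 each.

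Of the ETS genes, aop, the repressor, had 6 summits and pnt, the activator, had 5. At the 150 bp limit, 5 of the aop summits and none of the pnt summits were in the top regions of all 3 replicates. The gene aop (FBgn0000097, chr2L:2156484-2178754, minus strand) was 1 of 42 protein-coding genes (0.301%) with at least 6. The summit of rank 231, 4178 bp upstream of the outer start, ranked 158, 265 and 326 in the replicates (249.7 ± 85.0). It lay 970 bp from the start of the non-coding gene lncRNA:CR43751. In an intron, 2124 bp upstream of the inner start, the summit of rank 295 ranked 232, 353 and 383. Those of rank 618, 1477 bp upstream of the gene, and of rank 986, in an intron, were also among the top regions of all 3 replicates. So was the promoter summit of rank 1383, which ranked 1263, 1519 and 5778 by its nearest counterparts. In replicate 3 it counted through a second summit within 150 bp. The last, of rank 2637, was at 11730 in replicate 1 and at 2609 and 2556 in the others.

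The gene pnt (FBgn0003118, chr3R:23290231-23346167, minus strand) had its summits spread over 40.3 kb. Its strongest summit, of rank 921, in an intron 12146 bp upstream of the middle start, ranked 556 and 895 in replicates 1 and 2 and 9446 in replicate 3. The mean of 3632 ± 5040 became 725.5 without replicate 3. The intronic summit of rank 984 was strongest in replicate 3, at 299, and ranked 588 and 4409 in replicates 1 and 2. Replicate 2 also had a top region of rank 1026 at 269 bp from it, so that at a limit of 300 bp this summit is in all 3. The summits at the middle and inner starts, of rank 1575 and 1616, were low in replicate 3, at 20630 and 7688, against 1712 and 1091 and against 1325 and 1057 in replicates 1 and 2. The pnt summit of rank 2407 ranked 2970, 2715 and 7255 by its nearest counterparts, and a second summit within 150 bp was among the top regions of replicate 3. Of the 5 pnt summits 1 remained on leaving out replicate 1, 1 on leaving out replicate 2 and 3 on leaving out replicate 3.

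Sprouty, an intracellular antagonist of receptor tyrosine kinase signalling, had its strongest summit beyond the gene. Of the 3 summits of sty (FBgn0014388, chr3L:3401153-3424935, minus strand), those of rank 500 and 1239 lay past its 3′ end in intergenic sequence, and they are lost when the window is 2000 bp. They ranked 469, 634 and 522 (541.7 ± 84.2) and 908, 1406 and 891 in the replicates. For both, the nearest protein-coding start was that of Ids, at 17994 and 19785 bp. The start of the non-coding gene lncRNA:CR45737 lay 2174 and 3965 bp away. The summit of rank 1030, in an intron, ranked 614 and 528 in replicates 2 and 3 and 11802 in replicate 1.

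Ordered by the mean rank of the strongest summit, the genes ran from aos through aop, Raf, vn, sty, spi and Egfr to pnt. The pnt summit of rank 984 had a mean rank of 1765, ahead of spi (1810) and Egfr (2188). The place of pnt thus depends on the summit taken. The ranges of aos (131 to 161), aop (158 to 326) and Raf (232 to 339) overlapped from each to the next, and none of these ranges reached those of vn (407 to 691) or sty (469 to 634), which overlapped each other. The ranges of spi, Egfr and pnt also overlapped, and of these only pnt had a replicate rank within the range of vn.

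Beyond the 10 genes, 52 further genes of the pathway and of other receptor tyrosine kinases were listed, and 24 (46.2%) had an optimal summit inside them or within 5000 bp. Of the 26 of at least 10 kb 16 did (61.5%, beside 46.0% of all genes of that length), and of the 26 shorter ones 8 did (30.8%, beside 25.3%). Of the ligand and ligand-processing genes 4 of 8 did. They were the ligand-processing gene stet (strongest summit of rank 69), the Spitz-like ligand gene Krn (205), S, whose product carries Spitz through the secretory pathway (242), and the ligand-processing gene ru (607). The strongest summit of Krn ranked 220 or higher in every replicate. The replicate ranks were 52, 85 and 115 for stet, 359, 240 and 192 for S, and 483, 739 and 794 for ru. Krn and S had 5 optimal summits each, while the germline ligand gene grk had none.

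Of the cascade genes between receptor and MAP kinase 7 of 14 had an optimal summit, led by Shc (rank 49), RasGAP1 (145), cnk (197) and spri (505). The Shc summit lay 191 bp from the start of the neighbouring gene aay and the cnk summit 756 bp from that of l(2)k01209, while rl, the MAP kinase gene, and Dsor1, the kinase above it, had none. Of the inhibitors and feedback genes 5 of 12 had a summit. These were edl, whose product binds Yan and Pointed (rank 110, 7 summits), the Ras GTPase-activating protein genes Nf1 (129) and RasGAP1, which stands in both lists, the repressor gene cic (294) and lbk (543). The Nf1 summit was 268 bp from the start of CG43116. Of the genes of other receptor tyrosine kinases 9 of 19 (47.4%) had one. The insulin receptor gene InR (rank 67, 7 summits), the fibroblast growth factor gene ths (328), the adaptor gene stumps (392) and the receptor gene htl (1086) led. Of all genes 28.2% had one, and of those of at least 10 kb 46.0%. Genes of that length make up 5 of the 14 cascade genes, 6 of the 12 inhibitors and feedback genes and 13 of these 19. The share of the 19 was thus near that of long genes. The ths summit ranked 9128 in replicate 1 and 147 and 199 in replicates 2 and 3.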

How the data were processed

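The study measured binding of tagged Ac in 3 replicates. Per the file headers and accompanying notes, the authors deposited 30000 regions per replicate, a pooled list of 30000 and an optimal list derived through the irreproducible discovery rate. Neither the caller and its version nor the threshold is stated (not given in the sources used here). Each deposited region carries a signal value on an unstated scale, used for ranks, and the −log10 of a q value, used for a threshold of 0.05 (7511 pooled regions). The deposited files used here hold no read counts, so depth is unknown. The control alignment was not analysed here.

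Coordinates are dm6, counted from 1. Genes came from Ensembl release 115 (FlyBase annotation 6.54) and sequence from RefSeq's Release 6 assembly. Replicate ranks are those of the nearest summit within 150 bp. A replicate was left out by keeping optimal summits present in the top regions of both others. Scripts used Python 3.11.15, pandas 2.3.3 and numpy 2.4.6, checked on simulated data. Members, gene lists and motifs were chosen with earlier results of these data known, so no test was made. The genes named were the members, of which 1 is not reported here, and up to 4 per other list by the rank of their strongest summit. Neighbouring genes, CG32816, grk, lbk, rl and Dsor1 were named after their values were seen. Of 63 listed symbols, 1 was matched by synonym. Alternatives changed the gene window, list, match distance, motif window and promoter distance.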

Additional observations from a re-analysis of the deposited data

How the results depend on the processing

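The count of pathway genes with an optimal summit was 9 of 10 and ranged from 6 (the 1000 strongest optimal peaks) to 10 (pooled regions at a q value of at most 0.05) over the alternatives tried. The 32 summits became 14 with the 1000 strongest optimal peaks, 84 with pooled regions at that q value, and 17 to 21 when each replicate was left out in turn, since such a version can only lose summits. The 4 E-box summits became 8 within 200 bp and 1 to 3 with a replicate left out. The 5 promoter summits became 8 within 1000 bp of a start and 3 to 5 with a replicate left out. Summits present in all 3 replicates numbered 13 at 75 bp, 17 at 300 bp and 22 with the 5000 highest regions of each replicate. The genes of the other lists with a summit went from 24 to 23 at 2000 bp and, in an alternative chosen after seeing the data, to 18 to 21 with a replicate left out. No paired analysis was possible because there is 1 group. Depth is unknown, and its part in the spread between replicates was not tested.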
